A study of Mus musculus with 16 samples.

Results

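Mt1 and Mt2 encode metallothioneins, and they were followed here across basal epithelial cells of the mouse limbus and cornea. Every probe set annotated to 1 symbol among Mt1 and Mt2 was taken, which gave 3 of the 45101 probe sets of the array. They were 1422557_s_at and 1451612_at for Mt1 and 1428942_at for Mt2. The genes were selected on signals of these same arrays, with the limbal and corneal values known and no threshold stated, so levels and site differences are given as a description, with no test. Wild-type mice were used, and their strain, age and sex are not given in the labels. From each of 8 animals 300 basal cells were laser-captured from the corneal epithelium and 300 from the limbal epithelium, the rim between cornea and conjunctiva. The RNA of each capture was amplified and hybridised to its own array, giving 8 corneal and 8 limbal arrays, and the number in a title was read as the mouse. The labels give no treatment.

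Metallothioneins are small cysteine-rich proteins that bind zinc and copper and take up toxic metals such as cadmium. In the mouse, Mt1 and Mt2 are made in most tissues and are known as a pair that is induced by zinc, by glucocorticoids and by oxidative stress. Zinc acts through the transcription factor Mtf1, which binds short metal response elements in their promoters. Mt3 is best known from brain and Mt4 from stratified squamous epithelia.

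The RefSeq windows upstream of the starts are shown because the genes are neighbours with related control sequences. Both were found in the RefSeq table of build GRCm38.p6, on the plus strand of chromosome 8, with 6471 bases from the start of Mt2 to that of Mt1. The 250 bases before the start are chr8:94178839-94179088 for Mt1 and chr8:94172368-94172617 for Mt2. Capitals mark matches to the metal response element core, searched as TGCACNC and TGCGCNC on both strands, and to the antioxidant response element, searched as TGACNNNGC on both strands.
Mt1: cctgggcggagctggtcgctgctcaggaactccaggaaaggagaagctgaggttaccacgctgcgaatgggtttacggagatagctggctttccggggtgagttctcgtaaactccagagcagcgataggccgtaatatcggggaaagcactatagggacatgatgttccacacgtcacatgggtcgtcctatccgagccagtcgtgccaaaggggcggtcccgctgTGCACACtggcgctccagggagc
Mt2: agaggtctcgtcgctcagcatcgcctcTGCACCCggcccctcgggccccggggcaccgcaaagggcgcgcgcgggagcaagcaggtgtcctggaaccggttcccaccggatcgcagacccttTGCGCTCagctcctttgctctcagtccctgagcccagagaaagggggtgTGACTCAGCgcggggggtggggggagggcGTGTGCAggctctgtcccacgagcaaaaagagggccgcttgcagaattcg
The Mt2 window held 3 core matches and 1 antioxidant element match, TGACTCAGC, and no match overlapped another. The Mt1 window held 1 core match and 0 antioxidant element matches. Of 32851 such mouse windows, 21.4% held at least 1 core match, 1.3% held 3 or more and 10.2% held the antioxidant element. The same search found 1 core match for Mt4 and 0 for Mt3. A match is a description of letters and no evidence of binding. Elements outside these 250 bases, further upstream or past the RefSeq start, were not searched. The counts therefore do not compare the whole promoters of Mt1 and Mt2.

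The arrays were of unequal quality, and 1 corneal array stood apart. The arrays of mice 1 and 2 were scanned on the first of 3 days, those of mice 3 to 5 on the second and those of mice 6 to 8 on the third. The second day had the lowest 99th percentile of the deposited, scaled signals, at 2443 to 4908 against 14916 to 18165 on the third. Krt12, a keratin specific to corneal epithelium, gave a signal of 948 on the corneal array of mouse 5 and between 58785 and 307362 on the other corneal arrays. Krt5, a keratin of basal epithelial cells, had 195 there and between 14207 and 79434 on the others. On the limbal arrays Krt12 lay between 36932 and 227253 and Krt5 between 5047 and 38117. Krt12 and Krt5 were thus low on the corneal array of mouse 5 alone. The differences of the Mt1 and Mt2 probe sets and their correlation are given without this mouse as well. Krt14, another basal keratin, was lowest on 2 corneal arrays, with a signal of 316 in mouse 4 and 454 in mouse 5. In mice 1, 7 and 8 the limbal array was run on fluidics station 1 and the corneal array on station 2, and in the other mice both were run on the same station.

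Mt2 was lower in the limbal than in the corneal capture of all 8 mice. Its corneal signal, on the linear intensity scale of the array, had a lowest value of 881, a median of 5938 and a highest value of 20272. The limbal signal had a lowest value of 381, a median of 3537 and a highest value of 10386. The groups overlapped widely, with the lower median in limbal captures. The corneal arrays of mice 6 and 7 were the highest, at 20272 and 19715, and both arrays of mouse 5 were the lowest of their sites. On a log2 scale, after adding a constant of 89.4 to each signal, the mean was 12.64 ± 1.36 (SD, n = 8) in corneal and 11.53 ± 1.37 (SD, n = 8) in limbal captures. The mean limbal minus corneal difference was -1.11 ± 0.43 (SE of the fit, n = 8), or 2.16-fold. The SD of the difference over mice was 0.82, and its median over all tested probe sets, most of them dimmer than Mt2, was 1.24. Nothing is read from this about Mt2, which was chosen with these values known.

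**Figure D1:**
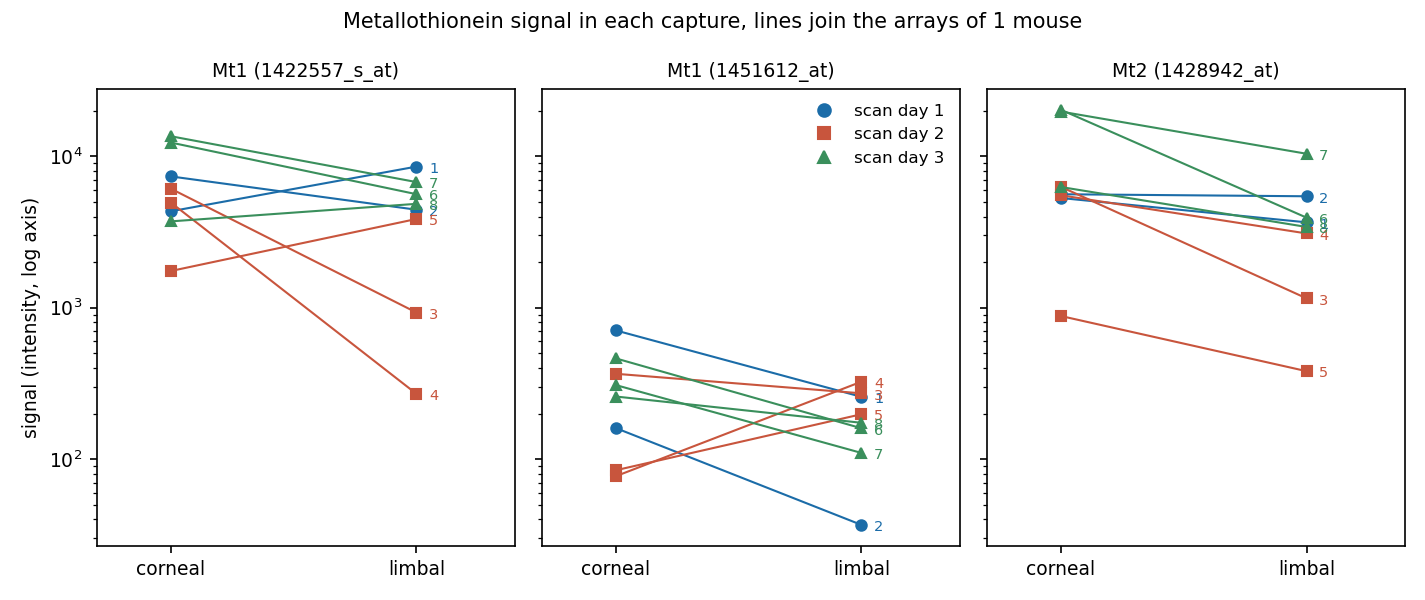
Signal of each metallothionein probe set in the corneal and limbal captures, on a log axis of intensity. Each line joins the arrays of 1 mouse, numbered at the right and coloured by scan day. Every line of Mt2 falls from corneal to limbal, whereas lines of both Mt1 probe sets cross.

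The size of the Mt2 difference varied among animals. It was largest in mice 3 and 6, at -2.36 and -2.34, and smallest in mouse 2, at -0.04, where the signals were 5612 and 5441. In mouse 6 the signal was 20272 in the corneal and 3933 in the limbal capture. The remaining mice, 1, 4, 5, 7 and 8, lay between -1.04 and -0.52. Averaged by scan day, with 2, 3 and 3 mice, the difference was -0.28, -1.41 and -1.37 in that order. Without mouse 5, whose corneal array stood apart, the mean was -1.12. In mice 1, 7 and 8, whose arrays were run on different stations, the differences were -0.52, -0.92 and -0.86, and in the other mice they ran from -2.36 to -0.04. Among all tested probe sets 0.596% were lower in the limbal capture of 8 of 8 mice, and 0.0851% differed between the sites at an adjusted p under 0.05 in limma, a linear model fitted across all probe sets (0.00370% in the lower direction). Nothing is read from these shares about Mt2, since the contrast was known when the genes were chosen.

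Mt1 did not keep a direction among the mice on its brighter probe set, 1422557_s_at. The corneal signal had a lowest value of 1747, a median of 5526 and a highest value of 13552. The limbal signal had a lowest value of 270, a median of 4643 and a highest value of 8543. The groups overlapped, and the limbal arrays of mice 3 and 4, at 929 and 270, lay below every corneal array. The means on the log2 scale were 12.49 ± 0.94 (SD, n = 8) in corneal and 11.64 ± 1.57 (SD, n = 8) in limbal captures. The mean difference was -0.85 ± 0.49 (SE of the fit), or 1.80-fold, with an SD over mice of 1.71. It was below 0 in 5 of 8 mice and above 0 in mice 1, 5 and 8. For comparison, 38.9% of tested probe sets were lower in 5 or more mice.

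The Mt1 mean leaned on mice 3 and 4, at -2.60 and -3.81. The limbal arrays of these mice had a median r of 0.32 and 0.26 with the other arrays. That value was also 0.32 for the limbal array of mouse 5, where the Mt1 difference was 1.10. It was 0.17 for the corneal array of mouse 5 and between 0.49 and 0.55 for the arrays of scan day 3. The part of array quality in the Mt1 differences was not tested. Without mouse 4 the difference was -0.43, and without mouse 5 it was -1.13. Averaged over the mice of scan days 1, 2 and 3 it was 0.12, -1.77 and -0.58, and without the mice of the second day -0.30. Of the mice scanned on the third day, 6 and 7 were below 0 and mouse 8 was above, at 0.38. The identifier of this probe set ends in _s_at, a class that can bind related transcripts, so a share of Mt1 signal from other metallothionein transcripts was not tested.

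The second Mt1 probe set, 1451612_at, was dim and matched the sign of the brighter one in part of the mice. Its mean log2 signal of 8.24 fell just below the limit of 8.27 used for testing, so 2 of the 3 probe sets entered the tested table. Mean brightness over the arrays was above that of 38.4% of probe sets, against 98.8% for each of the other probe sets. Corneal signals ran from 77.2 to 708 and limbal signals from 36.8 to 325. The difference was below 0 in mice 1, 2, 3, 6, 7 and 8 and above 0 in mice 4 and 5, with a mean of -0.38 ± 0.45 (SE of the fit), and of -0.54 without mouse 5. The sign was that of the brighter Mt1 probe set in 5 of 8 mice and that of Mt2 in 6. The probe sets of Mt1 disagreed most in mouse 4, at -3.81 and 1.31.

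**Figure D2:**
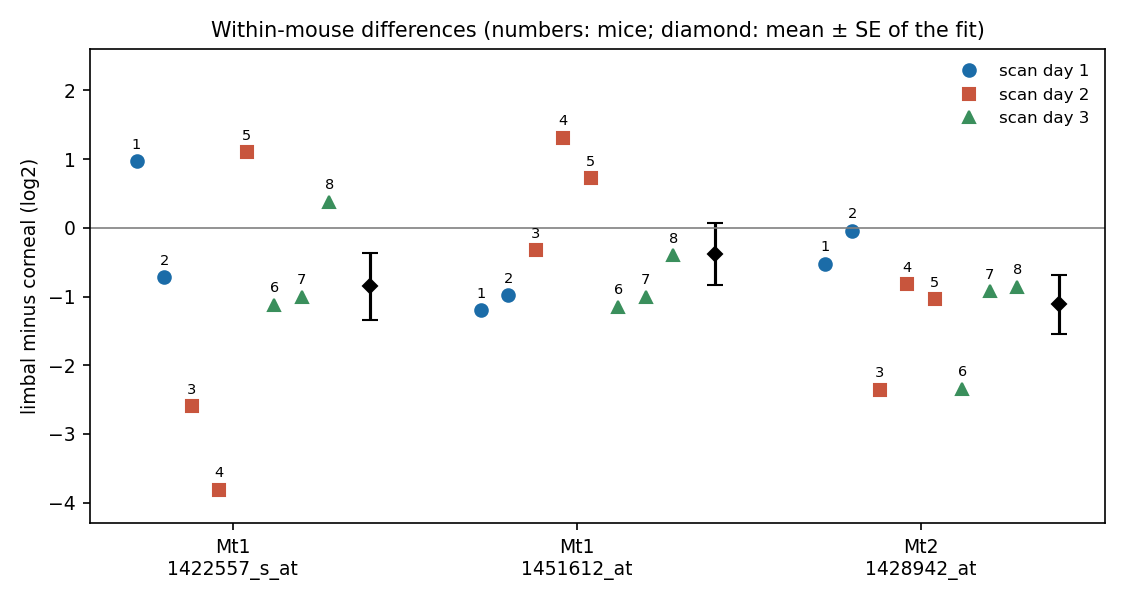
Limbal minus corneal difference of the log2 signal in each mouse for the 3 probe sets, numbered by mouse and coloured by scan day. The diamond is the mean with the standard error of the fit. All 8 Mt2 points lie below 0, while the brighter Mt1 probe set runs from -3.81 to 1.10.

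The differences of Mt1 and Mt2 did not track each other detectably over the 8 mice. Pearson's r was 0.33 (exact two-sided permutation p = 0.42, n = 8) and Spearman's rho was 0.26 (exact permutation p = 0.54). Adjusted over these 2 measures of 1 relation by the Benjamini-Hochberg method, both permutation p-values were 0.54. Without mice 4 and 5, the farthest from the median Mt1 difference, r was 0.68 (exact permutation p = 0.15, n = 6) and rho was 0.83 (exact permutation p = 0.058). Without mouse 5 alone, r was 0.36 (exact permutation p = 0.43, n = 7). With the mean of each scan day removed, r was 0.16 (exact permutation p = 0.71, n = 8), and single scan days hold too few mice for a value. The test does not show that the genes vary independently. The genes had the same sign in 5 of 8 mice, those in which Mt1 was below 0.

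**Figure D3:**
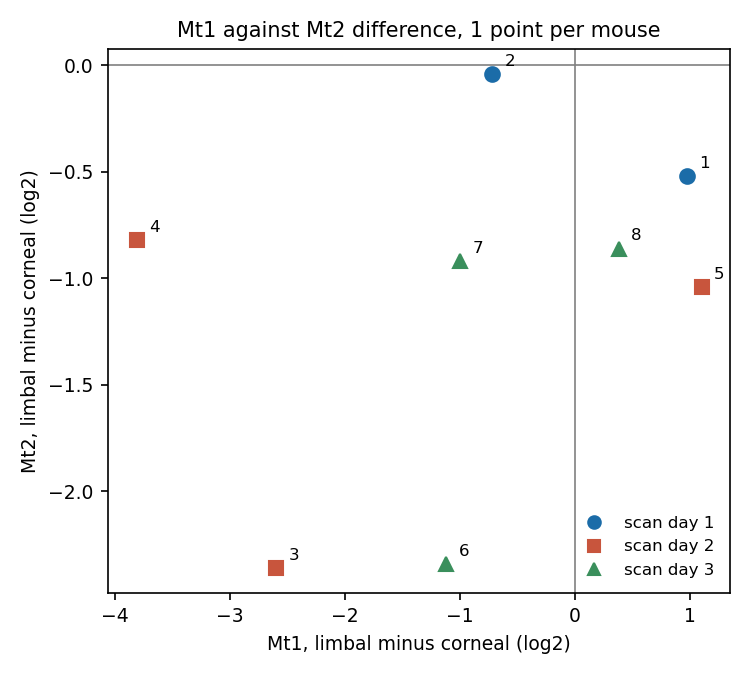
Within-mouse difference of Mt1 (brighter probe set, x axis) against that of Mt2 (y axis), both in log2 units, 1 point per mouse coloured by scan day. Mice 3 and 6 are low in Mt2, whereas mice 3 and 4 are low in Mt1.

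Over the 16 arrays the levels of Mt1 and Mt2 had an r of 0.58 as they stood. After each value was centred on the mean of its scan day and site, r fell to 0.02, and Mt2 stood at rank 6975 of 13569 genes by likeness to Mt1. The arrays of a day share processing, and the 99th percentile of the signal differed between days, so the first value includes differences between days. On the log2 scale, mean corneal Mt2 was 12.44, 11.67 and 13.74 on days 1, 2 and 3, and mean corneal Mt1 was 12.49, 11.91 and 13.08.

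The gene most like Mt2 in pattern was Dkk3, which encodes a secreted glycoprotein of the Dickkopf family. The measure was Pearson's r over the 16 arrays after the centring by scan day and site, and the highest values among 13569 genes are a description, with no test. Dkk3 had an r of 0.97 with Mt2, and 0.98 without both arrays of mouse 5, the farthest from the Mt2 median. Its signal was 12963 and 12772 in the corneal captures of mice 6 and 7 and between 198 and 2455 in the other corneal captures. In limbal captures it lay between 105 and 4328, with the highest value again in mouse 7. A further Dkk3 probe set had an r of 0.82 with Mt2. The mean difference of Dkk3 was -1.39 ± 0.42 (SE).

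Eogt, a glycosyltransferase gene, followed with an r of 0.95, then the cytokine receptor gene Crlf2 with 0.94, Haus4, a gene of the augmin complex of the spindle, with 0.93 and the ubiquitin ligase gene Rnf152 with 0.92. Over the 8 within-mouse differences, r with Mt2 was 0.95 for Dkk3, 0.92 for Eogt, 0.93 for Crlf2 and 0.96 for Rnf152, but 0.20 for Haus4. The further Dkk3 probe set had an r of 0.49 over these differences. Other probe sets of Eogt did not share the pattern, with r of -0.10 and -0.17 over the arrays and 0.12 and -0.26 over the differences. The genes most like Mt1 were Set, Zfat, St8sia1, Trim44 and Cdc20, with r between 0.91 and 0.93. Set encodes a histone chaperone and Cdc20 an activator of the anaphase-promoting complex. Their further probe sets had r between -0.46 and 0.56 with Mt1, so the likeness rested on single probe sets. None of the 5 genes closest to Mt1 was among the 5 closest to Mt2. Lists this short out of 13569 genes would seldom share a gene, so nothing is read from this.

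Markers of stroma, immune cells and conjunctival epithelium had mostly higher means in the limbal captures. All 8 stromal markers (Kera, Lum, Dcn, Col1a1, Col1a2, Col3a1, Ogn and Vim) had a higher mean in limbal captures. Their summed signal ran from 1983 to 28993 in corneal and from 4998 to 277620 in limbal captures, and Col1a2 and Vim passed the test across all probe sets. Averaged over the stromal markers, mice 6 and 2 differed by 4.28 and 3.90 and mice 5 and 8 by 0.37 and -0.23. Mt2 differed by -2.34, -0.04, -1.04 and -0.86 in these mice. The stromal average was 2.21, 1.03, 0.70 and 2.64 in mice 1, 3, 4 and 7. Of the 8 tested immune markers 7 had a higher limbal mean, with sums from 1351 to 11712 in corneal and from 2830 to 112093 in limbal captures, and the antigen-presentation gene H2-Aa passed (3.0 ± 0.53, limma adjusted p = 0.0097). Of 5 muscle markers 3 had a higher limbal mean and limma called 0, with 1 at an unadjusted p under 0.05, Myh1 at 2.86 ± 0.69. The muscle sums ran from 818 to 77617 in corneal and from 622 to 136651 in limbal captures. All 5 conjunctival keratins were higher on average, with sums from 901 to 13346 and from 1417 to 61959, and Krt4 passed. All 3 tested pigment cell markers had a higher limbal mean, the 2 endothelial ones went both ways, and limma called 0 in either list.

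The markers of corneal and basal epithelium went both ways. Krt15, a keratin of basal cells, was called higher in limbal captures (2.95 ± 0.57, limma adjusted p = 0.018). The transcription factor genes Pax6 and Trp63 differed by -1.15 ± 0.42 and -1.42 ± 0.41 and did not pass (limma adjusted p = 0.55 and 0.29). Averaged over the list, mice 3 and 6, the animals with the largest Mt2 differences, differed by -1.19 and -1.05, and mice 4 and 8 by -0.89 and -0.67. The average was 2.67 in mouse 5, where Mt2 differed by -1.04, and 0.67, 0.64 and 0.26 in mice 1, 2 and 7. Their summed signal ran from 4014 to 437381 in corneal and from 64478 to 318140 in limbal captures, the lowest being that of mouse 5. No marker of the epithelial, stromal, immune, muscle and conjunctival lists was listed at 0. The part of other cells in the Mt1 and Mt2 signals was not tested. Fewer epithelial cells in a capture and less metallothionein RNA per cell cannot be told apart in pooled captures.

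**Figure D4:**
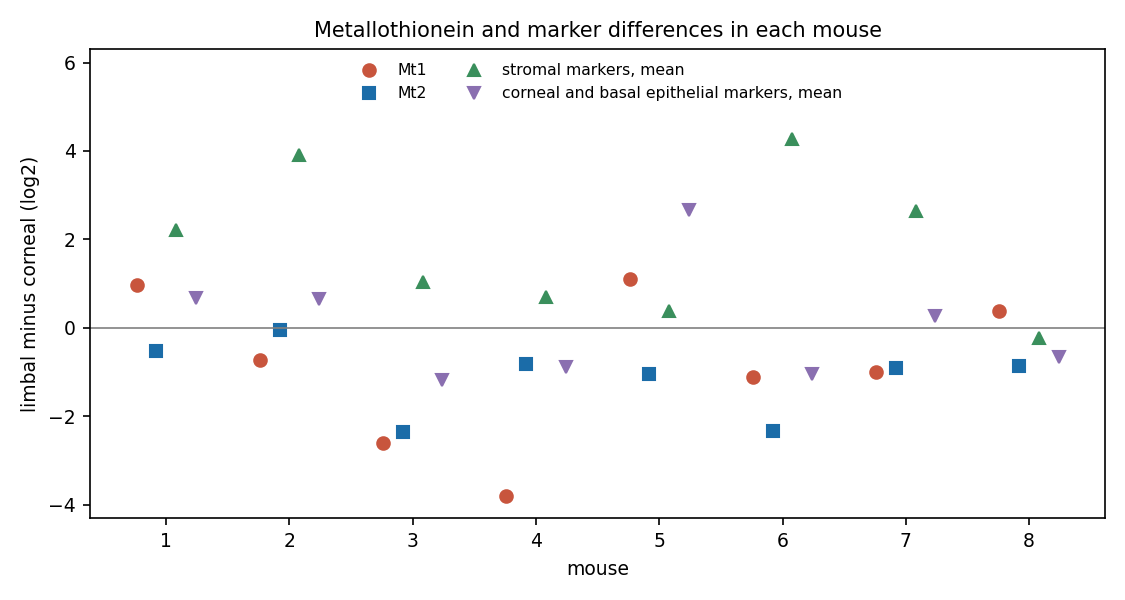
Limbal minus corneal difference (log2) in each mouse for Mt1 (brighter probe set), Mt2, and the mean of the stromal and of the corneal and basal epithelial markers. The stromal mean is above 0 in 7 of 8 mice, and Mt2 is below 0 in all 8.

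Among the other metallothioneins, Mt3 (1420575_at) was dim and ran the other way on average. Its corneal signals lay between 53.8 and 729 and its limbal signals between 56.7 and 895, and they overlapped. The mean difference was 0.73 ± 0.49 (SE), higher in 6 of 8 mice, and did not pass (limma adjusted p = 0.86). Mt4 (1450645_at) was too dim to be tested. Its mean difference was 0.74 ± 0.50 (SE of the fit without the filter), below 0 in 3 mice and above 0 in 5. The limbal signal was 714 in mouse 6 and 1778 in mouse 7, where the corneal signals were 14.7 and 46.5. In the other mice limbal signals lay between 32.6 and 431 and corneal signals between 87.7 and 408.

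No gene of the 8 lists on metal handling and metallothionein regulation passed the test across all probe sets. Of 78 genes other than Mt1 and Mt2, 69 were measured above the limit, and limma called 0. At an unadjusted p under 0.05 there were 9, of which 4 were higher and 5 lower in limbal captures, and 12 without mouse 5. Over all 13570 tested genes limma called 18, and 6.71% reached that level. With so few genes called in all, 0 called in a list says nothing particular to that list. In the lists, limma without the variance trend called 0 with 8 at an unadjusted p under 0.05, and with array weights it called 0 with 6. The median difference was 0.01 over all genes.

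Zinc transporters went both ways. Of 13 tested importers of the Slc39 family 7 had a higher and 6 a lower limbal mean, with a median of 0.15 and 0 called. Slc39a4, the intestinal zinc importer gene, had the smallest p. Its corneal signal had a lowest value of 54.0, a median of 139 and a highest value of 688, and its limbal signal ran from 345 over a median of 907 to 1099. The corneal signal of mouse 6, at 688, overlapped the limbal range, and the other 7 corneal captures lay at or below 296. The difference was 1.70 ± 0.45 (SE), higher in 7 of 8 mice, and did not pass (limma adjusted p = 0.18). Slc39a12 differed by -1.25 ± 0.45 (adjusted p = 0.55) and Slc39a6 by -1.17 ± 0.44 (adjusted p = 0.60).

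Of 8 tested zinc exporters of the Slc30 family 4 were higher and 4 lower on average, with a median of -0.01 and 0 called. Slc30a6, a transporter of the secretory pathway, had a difference of -0.89 ± 0.43, below 0 in 8 of 8 mice (limma adjusted p = 0.77). Slc30a3 differed by -0.44 ± 0.44. Slc30a1, a plasma membrane exporter that is itself a target of Mtf1, differed by -0.38 ± 0.45 (adjusted p = 0.95), and its other tested probe set by 0.54.

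In the list of transcription factors of metallothionein genes limma called 0 of 8 tested, with 3 higher, 5 lower and a median of -0.09. The 8 include Keap1, at -0.12, which regulates Nfe2l2 and is no transcription factor. Mtf1 differed by -0.31 ± 0.42 (limma adjusted p = 0.96). Usf2 differed by -0.88 ± 0.42 (limma adjusted p = 0.77), and its other tested probe set by 0.90. Sp1 differed by 0.68 ± 0.41 and Stat3 by 0.32 ± 0.43. In the lists of copper and iron handling 0 of 10 and 0 of 8 tested genes were called, with medians of 0.35 and 0.27. Commd1, Slc31a1 and Atp7b, the copper genes with the smallest p, differed by 0.59 ± 0.42, 0.52 ± 0.43 and 0.45 ± 0.45. Their other tested probe sets differed by -0.34, -0.02 and 0.09. Among iron genes Aco1 differed by 0.58 ± 0.40, Ncoa4 by -0.64 ± 0.47 and Fbxl5 by 0.44 ± 0.41.

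Genes that glucocorticoids induce had 8 of 12 members with a higher and 4 with a lower limbal mean, a median of 0.18 and 0 called. Klf9, a zinc finger transcription factor gene, differed by 1.44 ± 0.48 (limma adjusted p = 0.48), higher in 6 mice. Errfi1, a feedback inhibitor of the EGF receptor, differed by 1.16 ± 0.46, and Dusp1, a MAP kinase phosphatase gene, by 1.01 ± 0.44 (adjusted p = 0.64 and 0.72). The other tested probe set of Errfi1 differed by -0.10. Of the members with a lower limbal mean, as for Mt1 and Mt2, Ddit4 differed by -0.66 ± 0.44 and Tsc22d3 by -0.53 ± 0.44. Neither passed (limma adjusted p = 0.87 and 0.90). Both were named after their values were seen, and their other probe sets were not compared.

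Of 11 tested Nfe2l2 targets and antioxidant enzymes 7 were higher and 4 lower on average, with a median of 0.11 and 0 called. Gclm, the modifier subunit of the enzyme that makes the glutathione precursor, had the smallest p. Its corneal signal ran from 437 over a median of 930 to 1910, and its limbal signal from 98.6 over a median of 229 to 1163. The limbal capture of mouse 5 was the highest limbal one. The difference was -1.56 ± 0.42 (SE), lower in 8 of 8 mice, and did not pass (limma adjusted p = 0.20). Sod2 differed by 0.46 ± 0.42 and Sod1 by 0.35 ± 0.59. The other tested probe sets of Sod2 lay between -0.32 and -0.08 and those of Sod1 between -0.19 and 0.79. Of the 32 genes named by the smallest p in these lists or by likeness, 18 had another tested probe set. In 11 of them at least 1 had the opposite sign.

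**Figure D5:**
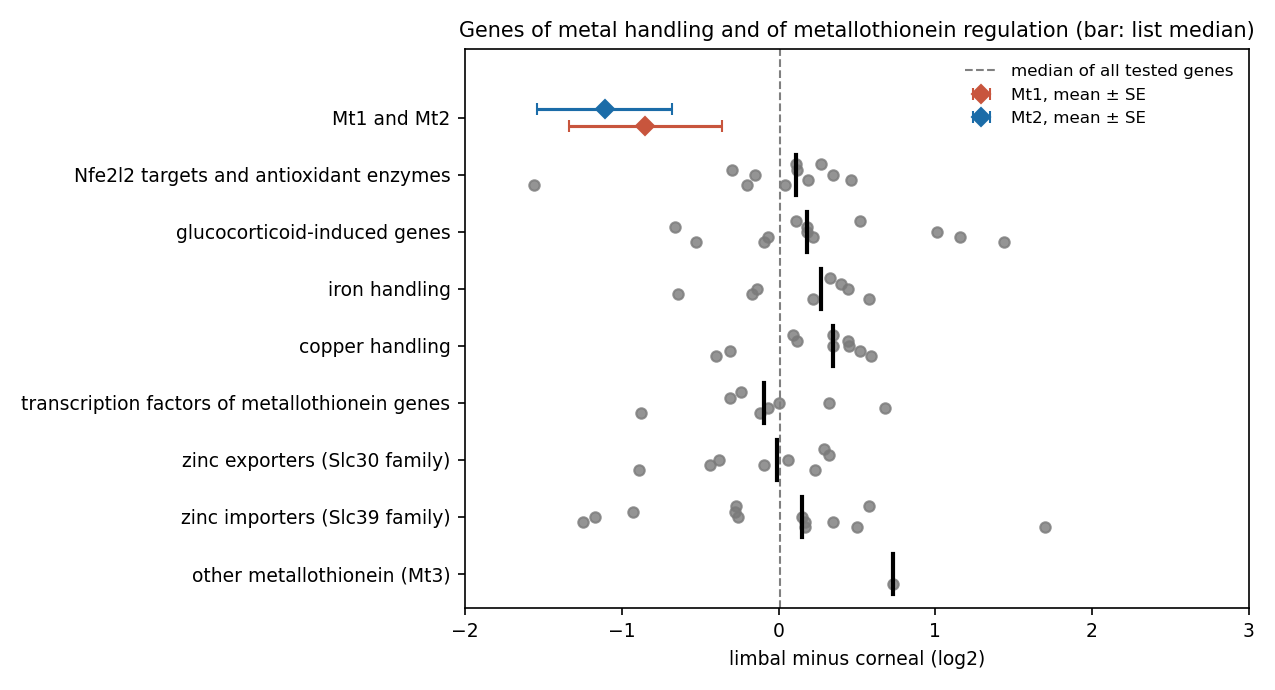
Limbal minus corneal differences (log2) of the tested genes in each list, 1 point per gene with the list median as a bar, and of Mt1 and Mt2 with the standard error of the fit. The dashed line is the median of all tested genes, 0.01. The list medians lie between -0.09 and 0.73, the latter being Mt3 alone.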

How the data were processed

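Per the file headers the 16 arrays were of the Affymetrix type Mouse430_2, 1 for each sample. The authors deposited a linear intensity for every probe set. The algorithm is not given in the sources used here. The mean after trimming 2% at each end was 500.0 on every array, so the arrays had been scaled to 1 target. This raises the background of arrays with little labelled target.

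Values were taken as log2(signal + 89.4), the constant being the 25th percentile of all signals, which understates changes of dim probe sets. Of 45101 probe sets, 64 controls were left out, and the 27022 above the 40th percentile of mean log2 signal were tested with limma 3.58.1 in R 4.3.3 (statmod 1.5.0), with a fixed effect for each mouse, a variance trend, Benjamini-Hochberg adjustment over all of them and a threshold of 0.05. The pairing comes from the design. Deviations from the site mean correlated with a median r of 0.30 between the arrays of a mouse, above 0.1 in 7 of 8 mice. Between mice the median was -0.06, with 18 of 56 pairs above 0.1. Both arrays of a mouse were scanned on the same day, and days were not centred. These values therefore cannot tell a shared mouse from a shared day. The platform annotation gave 1 symbol for 34958 probe sets, several for 932 and none for 9160. Symbols were updated through the RefSeq gene table, in which 99.4% of the single-symbol probe sets had an entry. The brightest tested single-symbol probe set stood for its gene. Scan days came from the array information files.

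The members, lists and tests were chosen with earlier results of these data known. Genes named are Mt1 and Mt2, up to 3 members of each list with the smallest p, called members, and the 5 genes most like each member over the arrays. Markers and family members beyond these were given as checks, and Mtf1, Keap1, Ddit4 and Tsc22d3 were named in addition. Correlations over mice used exact two-sided permutation. Alternatives covered the constant, normalization, filter, mouse term, variance trend, array weights, scan days and each mouse left out. The fit without scan day 2 was chosen after seeing the data. Simulated data with known changes were used to check the script. The number of arrays limits the precision.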

Additional observations from a re-analysis of the deposited data

Results flagged for a closer look

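Of 9 sets of 8 values examined for a sample far from the others, 1 was singled out. The corneal Mt2 value of mouse 5, 9.92 on the log2 scale, lay farther below the other corneal arrays than Dixon's criterion allows. Chance alone singles out about 1 in 20 such sets. On that array the epithelial keratins were also low, with a Krt12 signal of 948 and a Krt5 signal of 195. Its part in the Mt2 value was not tested, and the Mt2 difference was -1.12 without mouse 5 against -1.11 with it.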

How the results depend on the processing

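The Mt2 difference was below 0 in every setting tried. As it was below 0 in all 8 mice, another constant or leaving out mice or days could not change its sign. It lay between -1.14 and -1.05 under other constants, quantile normalization, median centring and array weights, and between -1.27 and -0.94 with each mouse left out. It moved to -0.28 on scan day 1 alone, which holds 2 mice, and was -0.94 without scan day 2. The Mt1 difference lay between -1.13 and -0.43 with each mouse left out, was -1.10 after quantile normalization and -0.42 with array weights, and was 0.12 on scan day 1 alone. That of the dim Mt1 probe set was 0.57 on scan day 2 alone. The correlation between Mt1 and Mt2 over mice lay between 0.11 and 0.61 with each mouse left out and passed in no setting. The count of called probe sets, 23, was 15 with the constant at the 5th percentile, 8 with a filter at the 60th percentile, 0 after quantile normalization, 117 with array weights, between 0 and 52 with each mouse left out, 117 on scan day 1 alone and 0 on scan days 2 and 3 alone. At an unadjusted p under 0.05 there were 1596 after quantile normalization, 1034 on scan day 2 and 2403 on scan day 3. Without the mouse as a replicate block limma called 0, with 858 at an unadjusted p under 0.05. Leaving out mouse 1, 2, 3, 6, 7 or 8 moved the count to 4, 0, 11, 4, 7 and 52. For these counts the cause was not tested. In the lists 0 genes were called in each of the 22 alternatives. Dim signals limit what Mt3, Mt4 and the second Mt1 probe set can show.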
